A study of Homo sapiens with 4 samples.

Results

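A set of 10 genes, KISS1, VIPR1, ADGRF1, CDCP1, PRRG3, TMPRSS15, CPA4, BMX, COX7B2 and ZNF560, was examined for transcripts left at a small share of the mean parental level in vemurafenib-resistant A375 cells. The genes were picked by name for their low level in resistant cells relative to parental cells, out of 24961 genes tested. The difference between resistant and control cells is therefore given for them as a description, with no test. All 10 were present in the count files. In 3 of them (PRRG3, COX7B2 and ZNF560) neither resistant library passed the low-count filter, so these entered the fit through the controls alone. In ADGRF1 resistant replicate 2 passed it and resistant replicate 1 did not. The filter asks for 2 libraries, so ADGRF1 also depended on the controls.

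A375 is a human melanoma line with an activating BRAF mutation. Resistant cells (2 libraries) were derived by raising vemurafenib, an inhibitor of mutant BRAF, from 0.1 to 6.4 µM in weekly doublings. Control cells (2 libraries) were the parental line. Both were grown in the same serum-supplemented medium. The protocols speak of a harvest after drug treatment and also name sorafenib and pioglitazone, but the sample labels give no treatment at harvest, so the drugs on the cells when RNA was taken are unknown. Nothing states that replicates came from separate cultures, and a p-value then covers the spread of these 4 libraries alone, which could be technical. Whether the resistant cells were a pool or a clone is not stated. In bulk samples such as these, fewer cells expressing a gene and less RNA per cell cannot be told apart.

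Counts assigned to genes totalled 68022689 and 85197524 in the resistant libraries and 72290468 and 87178097 in the control libraries. Every count of control replicate 1 was even, which leaves its depth in reads uncertain. Among melanocytic markers the lineage factor SOX10 was high throughout (969 and 864 CPM in resistant cells, against 704 and 1149 CPM in control cells). The melanosome genes TYR and DCT stayed under 0.3 CPM in every library. CPM scales each count to its library's total with TMM factors applied. The summed level of 6 epithelial markers, nearly all KRT8 and KRT18, was 304 and 483 CPM in resistant cells and 879 and 437 CPM in control cells, so the groups overlapped. EPCAM and CDH1 stayed under 0.6 CPM in every library, while the keratin gene KRT14 had 22 and 26 counts in resistant cells, against 116 and 180 counts in control cells, and was called lower (log2 fold change -2.56, edgeR adjusted p = 0.0355). The lineage factor MITF overlapped between the groups, at 12.3 and 23.4 CPM in resistant cells and 42.2 and 22.8 CPM in control cells. The summed level of 5 fibroblast markers was 11.9 and 10.3 CPM in resistant cells and 13.9 and 10.6 CPM in control cells, with COL1A1 the largest part. Their log2 fold changes went both ways, at 0.28 in COL1A1, 0.99 in COL3A1, -0.97 in DCN, -0.83 in PDGFRA and -2.83 in LUM, and none was called. COL3A1 had 107 and 98 counts in resistant cells, against 32 and 78 counts in control cells. LUM had 26 and 12 counts in resistant cells, against 156 and 124 counts in control cells (edgeR adjusted p = 0.0569). The summed level of 4 leukocyte markers was 1.72 and 1.00 CPM in resistant cells and 0.391 and 1.77 CPM in control cells. The part of any marker in the low levels of the 10 genes was not tested.

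The 10 genes come from several pathways. KISS1 encodes kisspeptin, a secreted peptide first described as a suppressor of melanoma metastasis, and VIPR1 encodes a receptor for vasoactive intestinal peptide that raises cyclic AMP. ADGRF1 is an adhesion G protein-coupled receptor, CDCP1 a membrane glycoprotein phosphorylated by SRC family kinases, and PRRG3 a membrane protein with a vitamin K-dependent Gla domain. TMPRSS15 encodes enteropeptidase, the duodenal protease that turns trypsinogen into trypsin, and CPA4 encodes a secreted metallocarboxypeptidase. BMX is a nonreceptor tyrosine kinase of the TEC family, COX7B2 a testis-expressed relative of the cytochrome c oxidase subunit gene COX7B, and ZNF560 a zinc finger gene.

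The members lie at 10 separate loci (coordinates on GRCh38, from the count files). KISS1 lies on chromosome 1 from 204190341 to 204196491, minus strand, and VIPR1 on chromosome 3 from 42489299 to 42537573, plus strand. CDCP1 lies on the same chromosome from 45082277 to 45146422, minus strand. ADGRF1 lies on chromosome 6 from 46997708 to 47042350, minus strand, and TMPRSS15 on chromosome 21 from 18269116 to 18485879, minus strand. CPA4 lies on chromosome 7 from 130293134 to 130324180, plus strand. BMX and PRRG3 lie on chromosome X, from 15464246 to 15556529 and from 151694607 to 151705924, both on the plus strand. COX7B2 lies on chromosome 4 from 46734827 to 46909245 and ZNF560 on chromosome 19 from 9466355 to 9498616, both on the minus strand. VIPR1 alone shares exonic bases with another gene, since 11.4% of them overlap its antisense gene VIPR1-AS1, where reads were dropped as ambiguous. Strand was not used in counting, so reads of the 2 genes cannot be told apart.

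The promoters of the 10 genes were examined because the genes were low together, and they differed widely in CpG content. RefSeq (GRCh38.p14) gave 15 windows for the 10 genes, each from 250 bases before to 50 bases after an annotated start. The median over all 35114 windows was 14 CpG, with quartiles of 4 and 28. The only TMPRSS15 window held 0 CpG, that of CPA4 held 1 and that of ADGRF1 held 2, against 27 in CDCP1 and 38 in the richest of 4 PRRG3 windows. The KISS1 window held 9, that of COX7B2 8 and that of ZNF560 16. The 2 VIPR1 windows held 3 and 25, and the 2 BMX windows 6 and 3. Some starts lie far inside the gene span of the count files, by 82094 bases in TMPRSS15, 36561 and 43062 bases in BMX and 13344 bases for the CpG-richer VIPR1 window, so these windows are not at the outermost annotated end. The 250 bases before the start are printed for the CpG-poor ADGRF1 (chr6:47042333-47042582, minus strand) and the CpG-rich CDCP1 (chr3:45146379-45146628, minus strand), 5′ to 3′, with CpG in capitals.
ADGRF1: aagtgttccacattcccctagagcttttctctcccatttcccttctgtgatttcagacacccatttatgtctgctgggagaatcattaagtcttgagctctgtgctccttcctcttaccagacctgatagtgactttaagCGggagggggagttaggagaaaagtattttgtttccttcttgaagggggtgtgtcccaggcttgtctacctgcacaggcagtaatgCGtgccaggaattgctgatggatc
CDCP1: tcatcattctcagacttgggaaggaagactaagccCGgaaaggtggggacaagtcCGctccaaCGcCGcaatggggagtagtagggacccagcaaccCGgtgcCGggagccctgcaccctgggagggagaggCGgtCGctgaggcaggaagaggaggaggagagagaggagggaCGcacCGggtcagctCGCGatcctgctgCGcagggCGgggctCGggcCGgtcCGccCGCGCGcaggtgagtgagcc

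In all, 9 short motifs were searched on both strands of these windows, and matches of different motifs may overlap. AP-1 (TGANTCA) matched 4 of the 15 windows, against 7.71% of all windows, in CPA4, TMPRSS15, COX7B2 and the PRRG3 window with 1 CpG. The TATA box letters TATAAA matched 5 windows (11.5% of all windows), those of KISS1, TMPRSS15 and CPA4 and both of VIPR1. The GC box GGGCGG matched 6 windows (45.0% of all), the CRE core TGACG 3 (24.6%), the M-box CATGTG 3 (11.1%), ACAAAG, a SOX motif, 2 (16.1%), the TEAD motif GGAATG 2 (14.0%) and the ETS motif CCGGAA 2 (17.2%). The canonical E-box CACGTG matched 0 of the 15 (7.26% of all). A match is a run of letters and no evidence of binding. The 250 bases before the start are printed for the 3 genes with AP-1 letters in their only window, with those letters in capitals. They are CPA4 (chr7:130292911-130293160, plus strand), TMPRSS15 (chr21:18403786-18404035, minus strand) and COX7B2 (chr4:46909246-46909495, minus strand). Counted from the start, the AP-1 letters begin at -48 and -15 in CPA4, at -128 in TMPRSS15 and at -177 in COX7B2.
CPA4: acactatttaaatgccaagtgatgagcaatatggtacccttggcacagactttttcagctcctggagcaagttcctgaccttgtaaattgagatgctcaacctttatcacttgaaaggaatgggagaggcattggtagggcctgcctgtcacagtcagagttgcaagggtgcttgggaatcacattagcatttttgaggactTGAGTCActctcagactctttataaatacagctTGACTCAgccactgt
TMPRSS15: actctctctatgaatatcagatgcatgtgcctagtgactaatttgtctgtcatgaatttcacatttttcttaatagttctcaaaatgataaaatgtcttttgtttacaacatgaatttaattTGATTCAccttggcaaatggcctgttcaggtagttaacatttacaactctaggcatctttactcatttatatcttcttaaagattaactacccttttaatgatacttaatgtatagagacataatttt
COX7B2: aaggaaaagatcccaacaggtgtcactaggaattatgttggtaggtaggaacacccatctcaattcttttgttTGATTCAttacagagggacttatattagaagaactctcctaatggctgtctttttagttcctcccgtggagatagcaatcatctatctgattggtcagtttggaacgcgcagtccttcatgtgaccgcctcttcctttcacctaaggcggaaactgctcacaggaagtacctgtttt

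Summed over the 10 genes, 288 and 681 counts remained in the resistant libraries (4.05 and 8.24 CPM), against 29938 and 16019 counts in the control libraries (418 and 185 CPM). Both resistant libraries lay below both controls for each of the 10, a direction that 22.2% of all genes tested shared. Of the 10, 8 were lower at an edgeR adjusted p under 0.05, as 0.513% of all genes tested were. These counts restate the choice of the genes. PRRG3 and CPA4 were the 2 not called. In all 10 both resistant libraries lay under 10% of the control mean, and in 6 of them (VIPR1, ADGRF1, CDCP1, TMPRSS15, COX7B2 and ZNF560) also under 10% of the lower control. The higher resistant library reached 10.2% of the lower control in KISS1, 13.0% in BMX and 58.7% in CPA4, and in PRRG3 the lower control exceeded it only 1.33-fold. Near silence relative to both controls therefore did not hold for CPA4 and PRRG3.

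**Figure D1:**
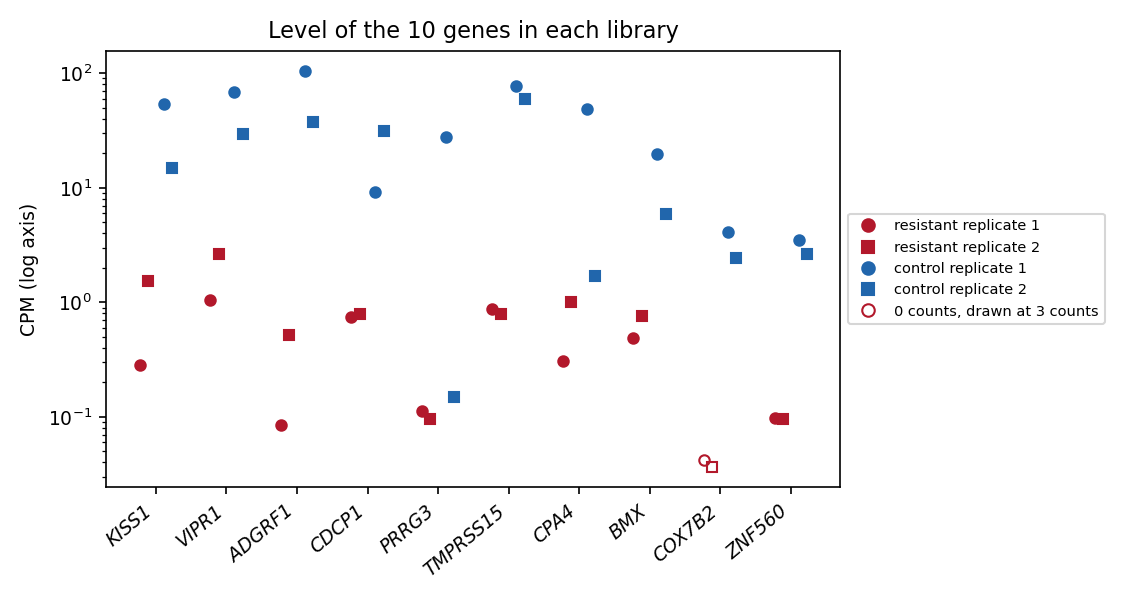
CPM on a log axis for each of the 10 genes in the 2 resistant libraries (red, left) and the 2 control libraries (blue, right), with a point per library. COX7B2, with 0 counts in resistant cells, is drawn as open symbols at the level of 3 counts, and the PRRG3 level in control replicate 2 sits beside the resistant libraries.

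Parental cells expressed the set at very different levels per kilobase of exon. KISS1 was highest at 48.0 ± 38.3 CPM per kilobase (mean ± SD, n = 2 here and below), and TMPRSS15 followed at 15.7 ± 3.06, less than the KISS1 spread away. VIPR1 came next at 6.62 ± 3.76, apart from TMPRSS15 by more than the spread of either. CPA4 (6.37 ± 8.39), ADGRF1 (5.78 ± 3.87), BMX (4.54 ± 3.48), COX7B2 (4.01 ± 1.44), CDCP1 (3.10 ± 2.39), PRRG3 (2.13 ± 2.98) and ZNF560 (1.03 ± 0.210) followed, with no neighbours in this order apart by more than the larger SD of the pair. In resistant cells KISS1 averaged 1.26 ± 1.23 CPM per kilobase, and VIPR1 (0.250 ± 0.151), BMX (0.222 ± 0.0674) and TMPRSS15 (0.191 ± 0.0120) did not differ beyond their spread.

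KISS1 had 20 and 126 counts in resistant cells, against 3836 and 1296 counts in control cells. Resistant replicate 2 was the higher of the resistant pair and control replicate 1 the higher of the controls, and the groups stayed apart. The level was 0.903 ± 0.879 CPM in resistant cells and 34.3 ± 27.3 CPM in control cells, a fitted log2 fold change of -5.22 ± 0.84 (SE). Leaving out resistant replicate 2 gave -6.92, and leaving out control replicate 1 gave -4.02.

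VIPR1 had 75 and 218 counts in resistant cells, against 4902 and 2533 counts in control cells. The level was 1.85 ± 1.12 CPM in resistant cells and 48.9 ± 27.8 CPM in control cells, and the groups did not overlap. Its log2 fold change was -4.72 ± 0.55, with a range of -5.53 (resistant replicate 2 left out) to -3.97 (control replicate 1 left out).

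ADGRF1 had 6 and 43 counts in resistant cells, against 7544 and 3267 counts in control cells. The lower control exceeded the higher resistant library 72.5-fold in CPM, the widest such margin among the 9 genes with any count in resistant cells. The level was 0.302 ± 0.308 CPM in resistant cells and 71.6 ± 47.9 CPM in control cells. The log2 fold change of -7.83 ± 0.78 became -9.70 with resistant replicate 2 left out and -6.91 with control replicate 1 left out.

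CDCP1 had 53 and 66 counts in resistant cells, against 658 and 2702 counts in control cells. It alone of the 10 was higher in control replicate 2 than in control replicate 1. The level was 0.772 ± 0.0373 CPM in resistant cells and 20.2 ± 15.6 CPM in control cells, with a log2 fold change of -4.71 ± 0.58. With only control replicate 2 kept it was -5.33, and with only control replicate 1 kept it was -3.57.

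PRRG3 had 8 and 8 counts in resistant cells, against 1976 and 13 counts in control cells. The resistant libraries, at 0.113 CPM (95% exact Poisson interval 0.0486 to 0.222) and 0.0968 CPM (0.0418 to 0.191), lay close to control replicate 2 at 0.150 CPM (0.0799 to 0.257), and these intervals overlapped. These intervals cover counting error only, and are too narrow because both mates of a read pair were counted. The fitted log2 fold change was -7.03 ± 1.98, which became -0.52 once control replicate 1 was left out and -8.02 once control replicate 2 was.

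TMPRSS15 had 62 and 66 counts in resistant cells, against 5576 and 5111 counts in control cells. The replicates of both groups were close, and the lower control exceeded the higher resistant library 67.7-fold in CPM. The level was 0.835 ± 0.0523 CPM in resistant cells and 68.5 ± 13.4 CPM in control cells. The log2 fold change of -6.36 ± 0.25 stayed between -6.54 and -6.14 with any 1 library left out.

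CPA4, the other protease gene, had 22 and 83 counts in resistant cells, against 3484 and 148 counts in control cells. Resistant replicate 2 had 1.00 CPM, and control replicate 2 exceeded it 1.70-fold at 1.71 CPM, so the gap between the groups was far smaller than the gap between the controls. The level was 0.657 ± 0.491 CPM in resistant cells and 25.2 ± 33.2 CPM in control cells. Its log2 fold change was -5.24 ± 1.38, which became -1.36 when control replicate 1 was dropped and -6.33 when resistant replicate 2 was.

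BMX had 35 and 63 counts in resistant cells, against 1416 and 509 counts in control cells. Control replicate 1 was the higher control, and the lower control exceeded the higher resistant library 7.71-fold in CPM. The level was 0.627 ± 0.191 CPM in resistant cells and 12.8 ± 9.83 CPM in control cells. The log2 fold change of -4.34 ± 0.60 lay between -4.97 and -3.22 with 1 library left out, the weakest without control replicate 1.

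COX7B2 had 0 and 0 counts in resistant cells, against 294 and 212 counts in control cells. A count of 0 was taken to allow up to 3 counts, or 0.0422 and 0.0363 CPM in the resistant libraries. The mean control level of 3.28 ± 1.17 CPM was 83.5-fold the mean of these limits. This ratio is no strict lower bound, since it leaves out the spread of the controls and both mates of a read pair were counted. It was the single member with no count in either resistant library.

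ZNF560 had 7 and 8 counts in resistant cells, against 252 and 228 counts in control cells. The replicates of both groups were close. The level was 0.0976 ± 0.00121 CPM in resistant cells and 3.08 ± 0.628 CPM in control cells, with a log2 fold change of -4.96 ± 0.42, between -5.15 and -4.73 with 1 library left out.

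The level left in resistant cells is given for each of the 2 libraries, whose difference has no replicate check. As a share of the control mean it ran from 0 in COX7B2 to 3.84% in BMX in resistant replicate 1, with a median of 1.25%. In resistant replicate 2 it ran from 0 in COX7B2 to 5.94% in BMX, with a median of 3.55%. Taking CPM plus 0.05, resistant replicate 2 exceeded resistant replicate 1 by 4.75-fold in KISS1, 4.24-fold in ADGRF1, 2.93-fold in CPA4 and 2.43-fold in VIPR1. In CDCP1, PRRG3, TMPRSS15 and ZNF560 the 2 resistant libraries differed by at most 1.11-fold.

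**Figure D2:**
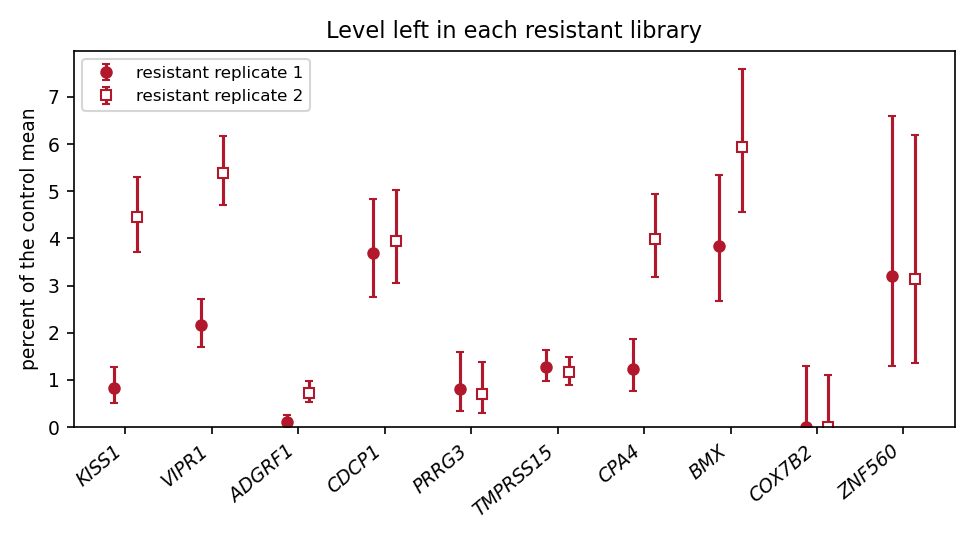
CPM in each resistant library as a percent of the mean of the 2 control libraries, by gene, for resistant replicate 1 (filled circles) and resistant replicate 2 (open squares). Bars are 95% exact Poisson intervals of the count (for COX7B2, up to 3 counts), and cover counting error only. KISS1, VIPR1, ADGRF1 and CPA4 sit higher in replicate 2.

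The 2 controls also differed in many of these genes. Control values helped choose the genes, and a single very high control library favours that choice, so these gaps are a description. On CPM plus 0.05, control replicate 1 exceeded control replicate 2 138-fold in PRRG3, 27.7-fold in CPA4, 3.57-fold in KISS1, 3.35-fold in BMX, 2.79-fold in ADGRF1 and 2.34-fold in VIPR1. CDCP1 was 3.38-fold higher in control replicate 2. Control replicate 1 was the higher in 9 of the 10, as in 53.1% of 15453 genes with a control mean of at least 1 CPM. A control gap over 2-fold was found in 7 of the 10, against 5.00% of those genes. Among genes within 2-fold of each member's control level, the gap was smaller in 98.8% to 100% of genes for these 7, in 80.4% for TMPRSS15, in 82.4% for COX7B2 and in 57.3% for ZNF560.

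**Figure D3:**
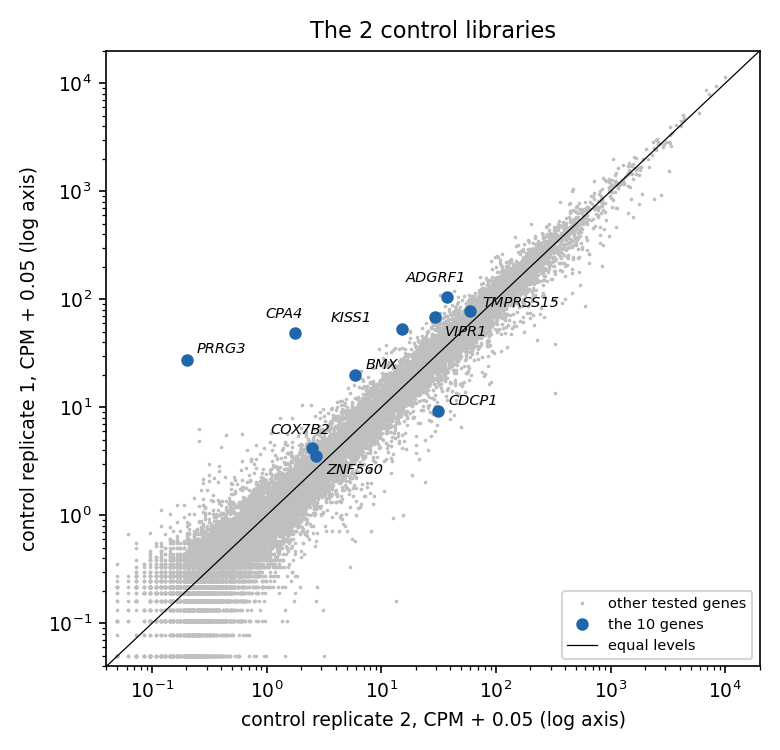
Level of each tested gene in control replicate 1 against control replicate 2, as CPM plus 0.05 on log axes, with the 10 genes in blue and the line of equal levels in black. PRRG3 and CPA4 lie far above the line and CDCP1 below it, while TMPRSS15, COX7B2 and ZNF560 lie near it.

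PRRG3 had the widest control gap of all genes tested, and CPA4 ranked 5 in that order. Of 13044 genes with at least 3 CPM in a control library, 16 differed at least 10-fold between the controls. In 6 of these control replicate 1 was higher, and in all 6 both resistant libraries lay nearer the lower control on a log scale. Beside PRRG3 and CPA4 they were SPANXC, FGFBP1, ANXA3 and CAVIN2. In the other 10 control replicate 2 was higher, and only in CTAG1A, a cancer-testis antigen gene, did both resistant libraries lie nearer the lower control. These genes and limits were chosen after their values were seen.

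The share of members among the genes with very little left in resistant cells depended on the limits set. In 16 genes with a control mean of at least 3 CPM the resistant mean was at most 1/20 of it, and 10 of the 16 were the members. The others were LINC01419, CAVIN2, LINC01608, CTAG1A, SPANXB1 and VIPR1-AS1. LINC01419 had 0 and 0 counts in resistant cells, against 578 and 598 counts in control cells, while CAVIN2 had 4 and 2 counts in resistant cells, against 446 and 18 counts in control cells. Among all genes tested, the members held ranks from 2 (COX7B2) to 62 (BMX), counted from the lowest fitted fold change. These limits, too, were chosen with the members' values in view. Other limits were set on 14851 genes with at least 1 CPM in both controls, 9 of them members. Both resistant libraries lay at or under 1/8 of the control mean in 27 of these genes, including 9 members. At 1/16 there were 16 genes, including 9 members, and at 1/32 there were 7, including 3 members.

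The genes most like the set were found from the root mean square distance to its mean log2(CPM + 0.05) profile over the 4 libraries. The 6 nearest, with at least 1 CPM in both controls, were LINC01608 (distance 0.621), ENSG00000228708 (0.648), ENSG00000280002 (0.737), VIPR1-AS1 (0.758), ADGRD1-AS1 (0.863) and PTGIS (0.978). VIPR1-AS1 had 13 and 6 counts in resistant cells, against 456 and 170 counts in control cells (log2 fold change -5.03). ENSG00000228708 lies on chromosome 21 from 18477358 to 18486599, across the outer end of TMPRSS15, and had 0 and 8 counts in resistant cells, against 168 and 128 counts in control cells. VIPR1-AS1 and ENSG00000228708 overlap the spans of VIPR1 and TMPRSS15, and strand was not used in counting. How far reads from these members' loci fell on them was not tested. ENSG00000280002 and ADGRD1-AS1, neighbours on chromosome 12, had 0 counts in both resistant libraries. PTGIS, which encodes prostacyclin synthase, had 1 and 3 counts in resistant cells, against 84 and 96 counts in control cells. Likeness was measured on these same values and gets no test of its own.

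Relatives and partners of the 10 genes were set beside them, and none changed past the threshold. Of 79 such genes 63 could be tested. With edgeR's quasi-likelihood test 0 were higher and 0 lower at an adjusted p under 0.05, against 0.577% and 0.513% of all genes tested, and 10 had an unadjusted p under 0.05, as 13.5% of all genes tested had. The median log2 fold change was -0.03, against 0.006 over all genes. DESeq2 called 2 higher and 3 lower, against 3.04% higher and 3.42% lower of the 20605 genes it gave an adjusted p.

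**Figure D4:**
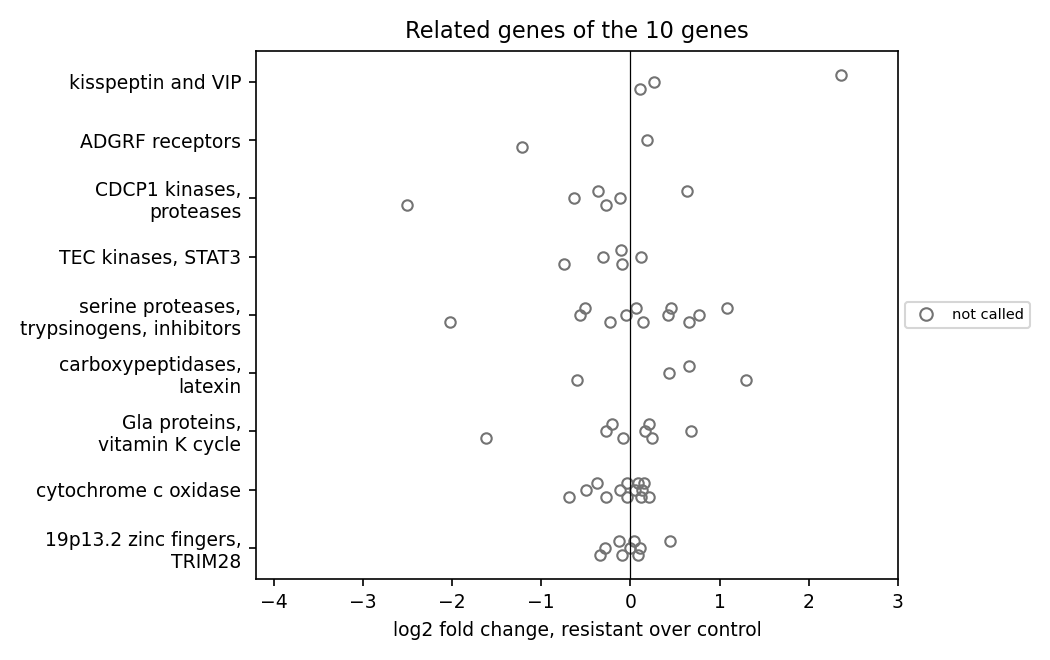
Log2 fold change, resistant over control, of the tested relatives and partners, a point per gene, grouped by list. The points drawn spread on both sides of 0, from -2.51 for PLAU to 2.36 for ADCYAP1, and none was called. Genes not reported here are not drawn.

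The kisspeptin receptor and the ligand of the VIP receptor were barely detected, whereas GNAS, the gene of the G protein subunit that couples VIP receptors to cyclic AMP, had 1023 ± 105 CPM in resistant cells and 950 ± 51.0 CPM in control cells (edgeR adjusted p = 0.868). KISS1R, the kisspeptin receptor gene, had 4 and 1 counts in resistant cells, against 0 and 4 counts in control cells, and VIP, the gene of the peptide itself, 5 and 0 counts, against 2 and 5. Neither was tested. ADCYAP1, which encodes the related peptide PACAP, had 45 and 54 counts in resistant cells, against 6 and 14 counts in control cells (log2 fold change 2.36, edgeR adjusted p = 0.108; DESeq2 adjusted p = 0.0403). VIPR2, the second VIP receptor gene, had 16 and 6 counts in resistant cells, against 4 and 16 counts in control cells.

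ADGRF4 and ADGRF5, paralogs of ADGRF1, were low in both groups. ADGRF4 had 31 and 6 counts in resistant cells, against 0 and 11 counts in control cells. ADGRF5 had 12 and 11 counts in resistant cells, against 18 and 39 counts in control cells (log2 fold change -1.22, edgeR adjusted p = 0.478). SRC, which phosphorylates CDCP1, differed by -0.11 on the log2 scale (89.2 ± 5.41 CPM in resistant cells and 96.5 ± 2.56 CPM in control cells, edgeR adjusted p = 0.837). PRKCD, a kinase that docks on phosphorylated CDCP1, differed by -0.63 (edgeR adjusted p = 0.127; DESeq2 adjusted p = 0.0299). ST14, which encodes matriptase, a protease able to cleave CDCP1, had 0.311 ± 0.0220 CPM in resistant cells and 0.401 ± 0.0534 CPM in control cells. PLAU, the urokinase gene, had 6 and 34 counts in resistant cells, against 138 and 83 counts in control cells (edgeR adjusted p = 0.155; DESeq2 adjusted p = 0.0153).

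The other TEC family kinases did not follow BMX past the test. TEC had 2.30 ± 0.224 CPM in resistant cells and 3.86 ± 1.11 CPM in control cells (log2 fold change -0.75, edgeR adjusted p = 0.366). BTK had 0.314 ± 0.273 CPM in resistant cells and 0.285 ± 0.0869 CPM in control cells. Among the transmembrane serine proteases, TMPRSS5 had 20.1 ± 4.63 CPM in resistant cells and 28.5 ± 1.23 CPM in control cells (edgeR adjusted p = 0.358). The trypsinogen genes PRSS1, PRSS2 and PRSS3, whose products are the substrates of enteropeptidase or their close relatives, had at most 19 counts in any library. The gene CPM, which encodes carboxypeptidase M, had 720 and 625 counts in resistant cells, against 226 and 348 counts in control cells (log2 fold change 1.30, edgeR adjusted p = 0.0795; DESeq2 adjusted p = 5.71e-04). LXN, which encodes latexin, an inhibitor of carboxypeptidases, had 8 and 19 counts in resistant cells, against 10 and 10 counts in control cells.

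PRRG1 and PRRG4, paralogs of PRRG3, had log2 fold changes of 0.20 and 0.17 (edgeR adjusted p = 0.706 and 0.885). PROS1, which encodes the Gla protein protein S, had 9.01 ± 1.22 CPM in resistant cells and 27.7 ± 10.7 CPM in control cells (log2 fold change -1.62, edgeR adjusted p = 0.052; DESeq2 adjusted p = 1.86e-05). COX7B, the widely expressed paralog of COX7B2, had 82.2 ± 7.25 CPM in resistant cells and 84.7 ± 21.9 CPM in control cells (log2 fold change -0.04, edgeR adjusted p = 0.963). The 13 tested cytochrome c oxidase genes had log2 fold changes from -0.69 to 0.21. Across the 9 tested genes of the ZNF560 list, 8 zinc finger genes of 19p13.2 and TRIM28, a corepressor of KRAB zinc finger proteins, the range was -0.34 to 0.44, and 0 had an unadjusted edgeR p under 0.05 (0 were called by DESeq2).

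Genes next to the members were examined to see how far along the chromosome the low levels reached. For each member up to 5 tested protein-coding genes on either side within 1000000 bases were taken, 86 genes in all. With edgeR 4 were lower and 0 higher at an adjusted p under 0.05, against 0.513% and 0.577% of all genes tested, and 27 had an unadjusted p under 0.05, as 13.5% of all genes tested had. Their median log2 fold change was -0.14. DESeq2 called 12 lower and 2 higher, against 3.42% lower and 3.04% higher of all genes it gave an adjusted p.

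The 4 were TNFRSF21 and PLA2G7 beside ADGRF1, KIF15 beside CDCP1 and PIR beside BMX. TNFRSF21, which encodes death receptor 6, had 48.1 ± 11.6 CPM in resistant cells and 245 ± 42.2 CPM in control cells (log2 fold change -2.35 ± 0.23, edgeR adjusted p = 0.012). It lies 189182 bases from ADGRF1. PLA2G7, the gene of a phospholipase that inactivates platelet-activating factor, had 1.40 ± 0.393 CPM in resistant cells and 7.08 ± 0.998 CPM in control cells (log2 -2.33 ± 0.32, edgeR adjusted p = 0.0276). PLA2G7 lies 262015 bases from ADGRF1 on the lower-coordinate side. Farther on that lower-coordinate side, TDRD6, at 293389 bases from ADGRF1, stood at -1.74 (edgeR adjusted p = 0.118; DESeq2 adjusted p = 0.0385), with both resistant libraries below both controls. The next genes on that side, SLC25A27 and CYP39A1, had log2 fold changes of -0.08 and -0.11 (edgeR adjusted p = 0.925 and 0.949). PIR, which encodes the nuclear protein pirin and whose span overlaps that of BMX, had 16.6 ± 0.308 CPM in resistant cells and 67.3 ± 19.7 CPM in control cells (log2 -2.02 ± 0.23, edgeR adjusted p = 0.0173). KIF15, a mitotic kinesin gene, had 8.02 ± 0.0366 CPM in resistant cells and 23.2 ± 5.55 CPM in control cells (log2 -1.53 ± 0.23, edgeR adjusted p = 0.0355). Without resistant replicate 2 the edgeR adjusted p was 0.0536 for TNFRSF21, 0.11 for PLA2G7, 0.114 for PIR and 0.186 for KIF15, and without resistant replicate 1 it was 0.0542 for PLA2G7 and 0.0725 for KIF15.

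**Figure D5:**
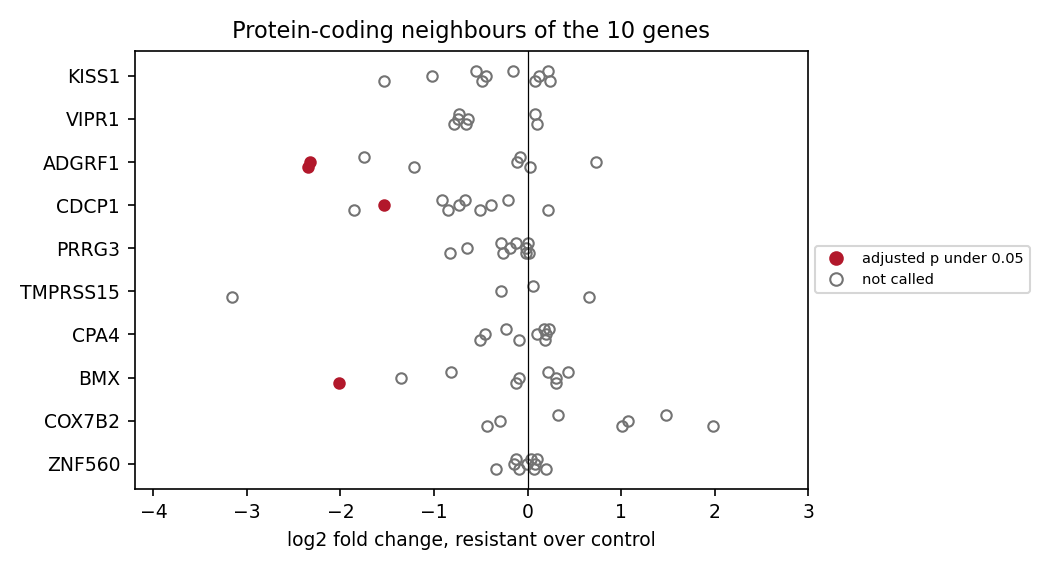
Log2 fold change, resistant over control, of the tested protein-coding neighbours of each of the 10 genes, with called genes in red. The 4 called genes lie beside ADGRF1, CDCP1 and BMX, and the neighbours of COX7B2 reach 1.98. Genes not reported here are not drawn.

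Around CDCP1 and VIPR1, both on chromosome 3, the neighbours had medians of -0.70 and -0.66, with 9 of 10 and 5 of 7 below 0. Around ADGRF1, on chromosome 6, the median was also -0.66, with 6 of 8 below 0. Around COX7B2 the median was 1.01, with GABRG1, a GABA receptor subunit gene, at 1.98 (2.62 ± 0.548 CPM in resistant cells and 0.658 ± 0.457 CPM in control cells, edgeR adjusted p = 0.13; DESeq2 adjusted p = 0.00614). Around ZNF560, CPA4, BMX, TMPRSS15 and PRRG3 the medians lay between -0.16 and 0.01, that of TMPRSS15 over only 4 genes, all on its lower-coordinate side. Of these, CHODL stood at -3.16 (edgeR adjusted p = 0.127), and DESeq2 gave it no adjusted p. It had 0.0402 ± 0.0227 CPM in resistant cells, near the level of 3 counts, and 0.368 ± 0.112 CPM in control cells. Around KISS1 the median was -0.30, and PLEKHA6, 22362 bases from it, had 4.12 ± 0.342 CPM in resistant cells and 12.0 ± 3.68 CPM in control cells (log2 -1.54, edgeR adjusted p = 0.0562; DESeq2 adjusted p = 3.94e-05).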

How the data were processed

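Raw counts per gene were deposited for 4 libraries, made after polyA selection with strand kept and both ends read, per the labels' protocols. Per the file headers, the authors counted with featureCounts 2.0.0 against GENCODE 42, giving an annotation and an output file as the sole options, on duplicate-marked alignments. Under that program's defaults strand is ignored, mates are counted singly, and reads of several places or genes are dropped. Both resistant files carry a number that does not match their labels, and each was taken by its own deposited record, an assignment on which every resistant value rests. STAR, DESeq2 and GRCh38 are named in the submitters' processing notes. A deposited log2 fold change table names no comparison, and was not tested.

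Of 62649 identifiers 62625 matched a symbol. Genes kept by filterByExpr (24961) were given TMM factors and entered edgeR's quasi-likelihood test (R 4.3.3, edgeR 4.0.16), with group as the sole term, two-sided, Benjamini-Hochberg adjusted over all genes, threshold 0.05. The SE is the log2 fold change over the root of its F statistic. DESeq2 1.42.0, other scaling, no filter, a replicate block, a halved control replicate 1 and each library left out were alternatives. Members and lists were chosen with earlier results of these data known. Named are all members, called relatives and neighbours, 15 relatives fixed by name and the 6 genes most like the members, and any further gene was picked with its values in view. Gene types came from GENCODE 29. Protein sequences were not used here. Values of some related and neighbouring genes, though counted in the totals, are not reported here.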

Additional observations from a re-analysis of the deposited data

How the results depend on the processing

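All 9 members with a fitted fold change kept its negative sign in every alternative, while COX7B2 has 0 counts in both resistant libraries and was left out. Both resistant libraries lay below both controls in each of the 9, so leaving out a library could not change the sign. Of 81 fold changes in the alternatives 8 moved by more than the spread between replicates, each with 1 library left out, and 73 did not. Among the 73, the replicate block gave -3.86 for CPA4 (reported -5.24) and -5.72 for PRRG3 (reported -7.03). The number of members called was 8 as reported, 5 with the replicate block, 9 with DESeq2 and 10 with no filter. Over all genes 128, 31, 705 and 961 were called lower in these settings, which was 0.513% as reported and 3.42% with DESeq2. The replicate block was fitted to the same 24961 genes as reported. With no filter all genes with any count were fitted, a larger set for which no share was computed. The counts of members restate the choice of the genes.

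Over all genes 144 were called higher and 128 lower. DESeq2 gave 627 and 705, no filter gave 905 and 961, and the replicate block gave 33 and 31. With 1 library left out, higher calls ranged from 7 to 1146 and lower calls from 9 to 1020, lowest without resistant replicate 2 and highest without control replicate 2. Among related genes, called 0 higher and 0 lower, DESeq2 gave 2 and 3, and no filter 3 and 2. PROS1 alone was called lower with DESeq2 size factors (1 gene) and with control replicate 1 halved (1 gene). Leave-one-out fits gave 0 to 5 higher and 0 to 2 lower. Among neighbours, called 0 higher and 4 lower, DESeq2 gave 2 and 12, no filter 2 and 15, and the replicate block 0 and 2 (TNFRSF21 and PIR). Leave-one-out fits gave 0 to 3 higher and 0 to 14 lower. The cause of these shifts was not tested. A fit without 1 library takes its spread from the other group.

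The replicate numbers share only a number: deviations of same-numbered libraries correlated at 0.00219 across 10089 genes, so the block is no pairing by design. Depth limits the low genes, since 3 counts correspond to 0.0346 to 0.0422 CPM.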

Other observations

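The authors' deposited table of log fold changes, whose comparison is not named, listed 7 of the 10 members. Its values were -9.10 for COX7B2, -6.43 for TMPRSS15, -5.29 for KISS1, -5.07 for ZNF560, -4.95 for CDCP1, -4.57 for VIPR1 and -4.44 for BMX. ADGRF1, CPA4 and PRRG3 were not among its 1533 rows. Over 1349 of its genes with at least 1 CPM in a group, the values in the authors' deposited table had a slope of 1.05 on the fitted log2 fold changes, resistant over control, which puts them on a log2 scale, and 99.9% had the same sign. The study holds no libraries beyond these 4, so this likeness is no separate check on the members.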
